A study of Mus musculus with 2 samples.

Results

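The genes Mir103-1, Mir103-2, Mir107, Mir33, Mir128-1 and Mir128-2 were followed in mouse calf muscle. They are 6 of 2202 microRNA genes with a row in the count tables, chosen by name and by host gene: 3 pantothenate kinase genes (Pank1, Pank2 and Pank3) for miR-103 and miR-107, Srebf2 for miR-33, and R3hdm1 and Arpp21 for miR-128. Small RNA from total RNA of the gastrocnemius was sequenced in 2 libraries, biological replicates 1 and 2 of a single group. All animals were untreated as far as the labels say, female, 25 days old and of the strain B6CASTF1/J, the F1 hybrid of C57BL/6J and CAST/EiJ. The labels number the source females separately yet give 1 donor identifier for both libraries, so every SD below measures the spread between these libraries, which may be technical. With no second condition, the design allows a description of levels and of how the libraries differ.

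A microRNA is cut from a hairpin and guides Argonaute proteins to messenger RNAs, mainly by pairing of its seed, bases 2 to 8. The genes described here lie in introns and can be transcribed with their hosts. Pantothenate kinases start the synthesis of coenzyme A, and Srebf2 encodes SREBP-2, a master activator of cholesterol synthesis. In mice, miR-103 and miR-107 are known to lower insulin sensitivity of fat and liver, miR-33 represses the cholesterol exporter Abca1, and miR-128, best known from brain, also represses lipid transport genes.

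All 6 hairpins matched an entry of RefSeq (GRCm38.p6, equivalent to the mm10 coordinates of GENCODE M21), and their sequences are shown because shared stretches decide which locus a read can be given to. They are written 5′ to 3′ with the mature 5p and 3p arms in capitals.
Mir103-1: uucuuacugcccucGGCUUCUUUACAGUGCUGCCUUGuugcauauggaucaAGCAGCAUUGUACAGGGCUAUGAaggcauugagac
Mir103-2: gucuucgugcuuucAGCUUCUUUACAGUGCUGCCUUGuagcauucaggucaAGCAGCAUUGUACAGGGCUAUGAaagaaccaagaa
Mir107: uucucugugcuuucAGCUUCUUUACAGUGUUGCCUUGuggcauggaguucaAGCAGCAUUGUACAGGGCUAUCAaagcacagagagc
Mir33: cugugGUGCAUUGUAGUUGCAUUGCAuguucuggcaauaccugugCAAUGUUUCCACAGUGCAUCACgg
Mir128-1: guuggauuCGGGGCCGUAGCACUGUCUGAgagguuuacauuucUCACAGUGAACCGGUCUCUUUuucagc
Mir128-2: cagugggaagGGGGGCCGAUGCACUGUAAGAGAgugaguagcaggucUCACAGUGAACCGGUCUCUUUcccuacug
The mature microRNAs generally taken as the active arm follow, with the seed in capitals, grouped by seed.
miR-103-3p: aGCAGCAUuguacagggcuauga
miR-107-3p: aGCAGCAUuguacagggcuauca
miR-33-5p: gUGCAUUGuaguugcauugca
miR-128-3p: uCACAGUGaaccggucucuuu
Mir103-1 and Mir103-2 encode the same miR-103-3p, and Mir128-1 and Mir128-2 the same miR-128-3p. MiR-103-3p and miR-107-3p have identical seeds and differ by G22C, the base of miR-103-3p first and positions counted from the 5′ end. Among the mature sequences of RefSeq, no gene other than Mir103-1, Mir103-2 and Mir107 had the seed GCAGCAU, no gene other than Mir33 had UGCAUUG, and no gene other than Mir128-1 and Mir128-2 had CACAGUG.

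Each hairpin lay in an intron of its host, on the host's strand, with no annotated microRNA gene opposite it. Mir103-1 (ENSMUSG00000065553.1) spans chr11:35782396-35782481 on the forward strand, in intron 5 of 6 of an annotated Pank3 transcript. Mir103-2 (ENSMUSG00000065563.1) spans chr2:131288052-131288137 on the forward strand, in intron 7 of 8 of an annotated Pank2 transcript. Mir107 (ENSMUSG00000065594.1) spans chr19:34820687-34820773 on the reverse strand, in intron 5 of 6 of an annotated Pank1 transcript, 326 bases after the upstream exon. The 3 pantothenate kinase hairpins thus lay in the next-to-last intron of these transcripts, as did Mir128-2 in the Arpp21 transcript given below. Mir33 (ENSMUSG00000065465.1) spans chr15:82198122-82198190 on the forward strand, in intron 16 of 18 of an annotated Srebf2 transcript. Mir128-1 (ENSMUSG00000065520.2) spans chr1:128202361-128202430 on the forward strand, in intron 19 of 26 of a transcript of R3hdm1, which encodes a protein with an RNA-binding R3H domain. Mir128-2 (ENSMUSG00000065441.2) spans chr9:112118636-112118711 on the reverse strand, in intron 17 of 18 of a transcript of Arpp21, the gene of a cyclic AMP-regulated phosphoprotein abundant in brain. The nearest other microRNA gene was 70074 bases from Mir107 and farther from the others, so none of the 6 belongs to a tight cluster.

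Replicate 1 held 1573213 and replicate 2 held 5429127 counts on the strand of microRNA genes. Levels are given as CPM, the counts scaled to 1000000 per library. They were not divided by hairpin length, since a read stands for 1 mature molecule, and the order of the 6 genes was the same per hairpin base. A count of 0 allows up to 3 counts, or 1.91 CPM in replicate 1 and 0.553 CPM in replicate 2. Intervals and such limits cover counting error only. Listed genes of striated muscle held 3.64% of replicate 1 and 7.50% of replicate 2, with all 11 of them counted. Nearly all of that share was Mir206, a microRNA of skeletal muscle, at 34864 CPM (replicate 1) and 72482 CPM (replicate 2). Reads that aligned to several places, 68.6% and 69.7% of all reads, were given to no gene. The muscle share and the levels below therefore rest on reads placed at 1 locus only. They are not amounts of the microRNAs.

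Mir128-1 was counted at the highest level of the 6 genes, and the miR-128 genes held most of the counts of the set. Mir128-1 had 1381 CPM in replicate 1 (2172 counts) and 1581 CPM in replicate 2 (8584 counts), a mean of 1481 ± 142 (SD, n = 2). Mir128-2 had 214 CPM in replicate 1 (336 counts) and 310 CPM in replicate 2 (1685 counts), a mean of 262 ± 68.4 CPM (SD, n = 2). Both genes were lower in replicate 1 than in replicate 2, and the ranges of the genes did not overlap. Together they made up 75.7% of the counts of the 6 genes in replicate 1 and 80.8% in replicate 2. Of all microRNA-gene counts, they held 0.159% in replicate 1 (exact Clopper-Pearson 95% interval 0.153 to 0.166) and 0.189% in replicate 2 (0.186 to 0.193).

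Among the miR-103 and miR-107 genes nearly all counts were given to Mir107. Mir107 had 487 CPM in replicate 1 (766 counts) and 436 CPM in replicate 2 (2369 counts), a mean of 462 ± 35.7 (SD, n = 2). Mir103-2 had 17.2 CPM in replicate 1 (27 counts) and 7.0 CPM in replicate 2 (38 counts), a mean of 12.1 ± 7.19 CPM (SD, n = 2). Both were higher in replicate 1, and Mir107 was far above Mir103-2 in each library. Mir103-1 had 0.636 CPM in replicate 1, a single count and under the limit of a count of 0 there. It had 0.737 CPM in replicate 2 (4 counts, exact Poisson 95% interval 0.201 to 1.89), so its level is not measured beyond its being low. The counts of Mir107 were 27.4 times those of Mir103-1 and Mir103-2 summed in replicate 1 (exact 95% interval 18.8 to 41.4) and 56.4 times in replicate 2 (41.6 to 78.5). These ratios compare reads placed at 1 locus only, not the amounts of miR-107 and miR-103.

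Mir33, the microRNA of the Srebf2 intron, was counted rarely. It had 6.36 CPM in replicate 1 (10 counts, exact Poisson 95% interval 3.05 to 11.7) and 5.71 CPM in replicate 2 (31 counts, 3.88 to 8.10), a mean of 6.03 ± 0.457 (SD, n = 2). The libraries lay within each other's intervals. Mir33 thus held 0.302% of the counts of the 6 genes in replicate 1 and 0.244% in replicate 2.

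**Figure D1:**
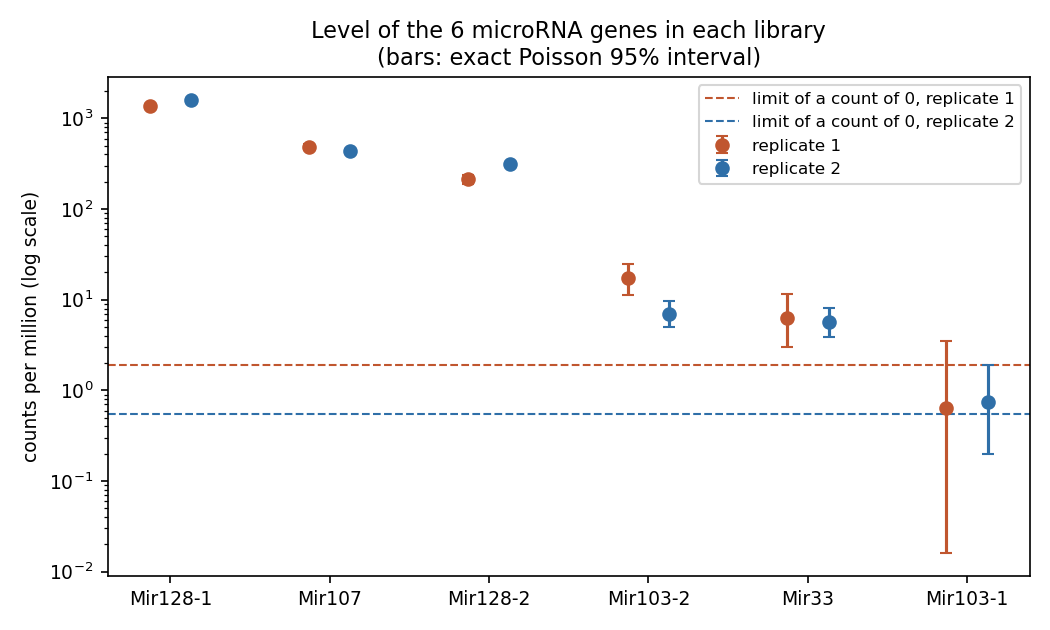
CPM of the 6 genes (log axis) in replicate 1 and replicate 2, with exact Poisson 95% intervals and dashed lines at the limit that a count of 0 allows (1.91 and 0.553 CPM). Mir128-1, Mir107 and Mir128-2 lie at 214 CPM or more in both libraries, Mir103-2 and Mir33 between 5.71 and 17.2 CPM, and Mir103-1 under 1 CPM.

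By mean level the order was Mir128-1, Mir107, Mir128-2, Mir103-2, Mir33 and Mir103-1. The full miR-103-3p and miR-128-3p each match more than 1 hairpin, unlike the mature arms of Mir107 and Mir33. The order is therefore one of reads placed at 1 locus, not of microRNA amounts. For each pair of neighbours the exact 95% interval of the count ratio lay above 1 in both libraries, except for Mir103-2 over Mir33. Mir33 over Mir103-1 rested on 10 counts against 1 in replicate 1 (interval 1.42 to 434) and on 31 against 4 in replicate 2 (2.74 to 30.2). Counts of Mir103-2 were 2.70 times those of Mir33 in replicate 1 (exact 95% interval 1.27 to 6.25), but 1.23 times in replicate 2 (0.743 to 2.04), an interval that includes no difference. Mir107 stood 2.28 times above Mir128-2 in replicate 1 (2.00 to 2.60) and 1.41 times in replicate 2 (1.32 to 1.5). Of the 6 genes, 5 reached a CPM of 2 in both libraries, as did 14.7% of all 2202 genes and 15.6% of the 737 microRNA genes in a same-strand intron of a coding gene. On the opposite strand, 0 counts were tallied for each of the 6 genes in either library.

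Genes that encode the same mature microRNA were counted at unequal levels. Mir128-1 exceeded Mir128-2 by 6.46 times in replicate 1 (exact 95% interval 5.76 to 7.27) and by 5.09 times in replicate 2 (4.83 to 5.37), a mean log2 ratio of 2.52 ± 0.24 (SD, n = 2). For the miR-103 loci, the counts of Mir103-1 over those of Mir103-2 gave ratios of 0.0370 in replicate 1 (1 over 27 counts, exact 95% interval 0.000905 to 0.225) and 0.105 in replicate 2 (4 over 38 counts, 0.0273 to 0.292). Mir128-1 was therefore the higher of its pair in both libraries and Mir103-1 the lower of its pair, the intervals of the libraries overlapping only for the miR-103 loci.

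The hairpins shared long runs around these mature sequences. Mir103-1 and Mir103-2 shared 27 consecutive bases, and each shared 24 with Mir107. Mir128-1 and Mir128-2 shared 23. Read from the 5′ end of the 3p arm, a sequence needed 25 bases, 2 more than miR-103-3p, before it matched 1 hairpin only among the 2202 annotated ones. The 3p arm of Mir128-1 or Mir128-2 needed 22 bases, 1 more than miR-128-3p, and that of Mir107 needed 22 of its 23 bases. Both arms of Mir33 were already particular to it at 15 bases, the shortest length searched.

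The 5p arms of the miR-103 loci differed by G1A (Mir103-1 first) and marked a single hairpin at 15 and 16 bases. That of Mir107 differed from that of Mir103-2 by C16U and needed 16 bases, and the 5p arms of the miR-128 loci needed 15. The labels give a size range below 30, with no unit. Counts belong to whole hairpins, so the arms were not told apart. Mir33, which shares no arm, was counted at 6.03 CPM, between Mir103-2 and Mir103-1. As a different gene, it is no measure of any reads that the miR-103 loci lost. The part of shared sequence in these levels was not tested. A search outside annotated hairpins was not made.

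**Figure D2:**
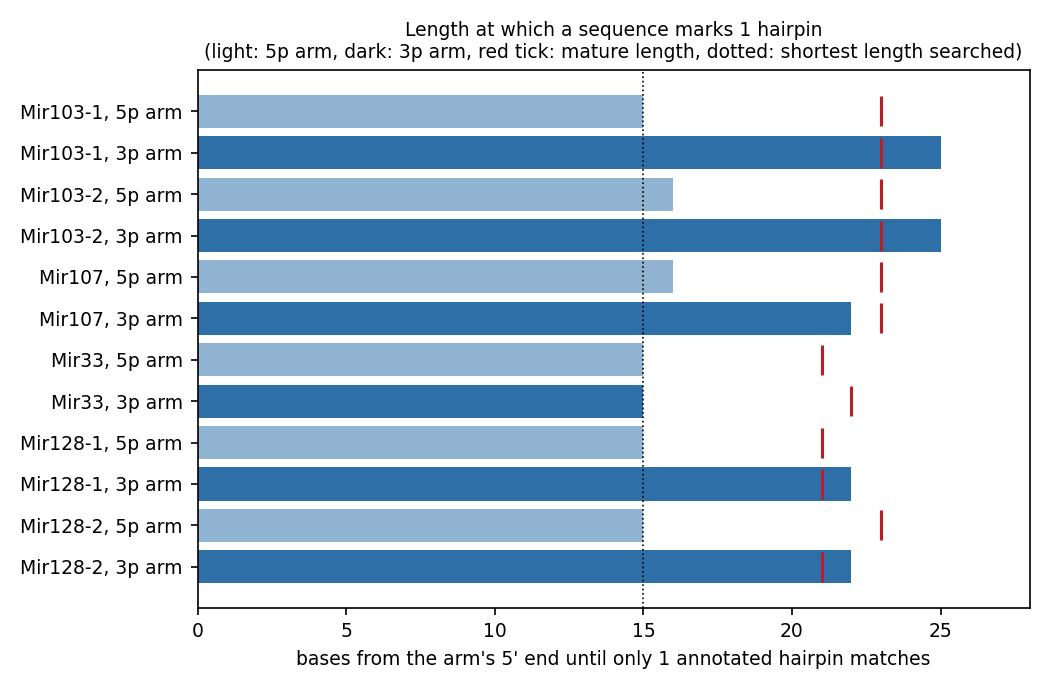
For each arm of the 6 hairpins, the bar gives the number of bases from the arm's 5′ end at which only 1 of 2202 annotated hairpins still matches, the red tick the length of the mature microRNA, and the dotted line the shortest length searched (15 bases). The bar passes the tick only for the 3p arms of Mir103-1, Mir103-2, Mir128-1 and Mir128-2.

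Between the libraries, Mir103-2, Mir128-1 and Mir128-2 differed in reads under every scaling run, and Mir107 with library totals but not with TMM or DESeq2 factors. All genes with 10 or more counts over both libraries entered a two-sided exact binomial test on the counts, with Benjamini-Hochberg adjustment over all 364 genes tested. Past an adjusted p of 0.05 were 4 of the 5 members tested, 2 in each direction, where 45.3% of all tested genes passed, 30.2% as higher in replicate 1 and 15.1% as lower. With TMM scaling 3 members passed beside 166 of all 364 genes. With DESeq2 size factors 3 members passed beside 175 of 364. The test sets reads of 1 library against reads of another and not conditions. For the spread of single genes, edgeR gave a common biological coefficient of variation of 24.5%, on 1 residual degree of freedom. Counting error left out, a gene's log2 ratio then has an SD of 0.50, and 34.1% of tested genes lay beyond it. Genes with few counts, such as Mir103-2 and Mir33, have a larger spread than this. Ratios are replicate 1 over replicate 2.

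Mir103-2 was higher in replicate 1 at 17.2 CPM, against 7.0 CPM in replicate 2, a log2 ratio of 1.30 (exact 95% interval 0.53 to 2.04, adjusted p = 0.00171 in the exact binomial test). Mir128-2 was lower in replicate 1 at 214 CPM, against 310 CPM in replicate 2, a log2 ratio of -0.54 (-0.71 to -0.37, adjusted p = 5.06e-10, exact binomial test). These were the only members beyond the SD of a single gene, which was estimated with TMM scaling. Mir128-2 lay beyond it by little with library totals, and had a log2 ratio of -0.62 with TMM scaling. Mir128-1 also passed, with a log2 ratio of -0.20 (-0.26 to -0.13, adjusted p = 5.54e-08, exact binomial test), but lay within that SD.

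Mir107 passed with library totals as the scale, at a log2 ratio of 0.16 (0.04 to 0.28, adjusted p = 0.0218, exact binomial test), and did not pass with TMM scaling (log2 ratio 0.079, adjusted p = 0.297) or DESeq2 size factors (0.026, adjusted p = 0.784). Its sign turned, at -0.019 and -0.043, when those factors were taken over all genes with a count. Mir33 did not pass, with a log2 ratio of 0.20 and an interval from -1.04 to 1.22, which does not exclude a 2-fold difference in either direction. Mir103-1 had too few counts to be tested. The median log2 ratio of the 5 members tested was 0.16, and that of all genes tested 0.15. DESeq2 size factors moved every ratio down by 0.13. The split of all calls, 110 higher in replicate 1 and 55 in replicate 2, became 90 and 76 with TMM scaling and 80 and 95 with DESeq2 size factors.

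**Figure D3:**
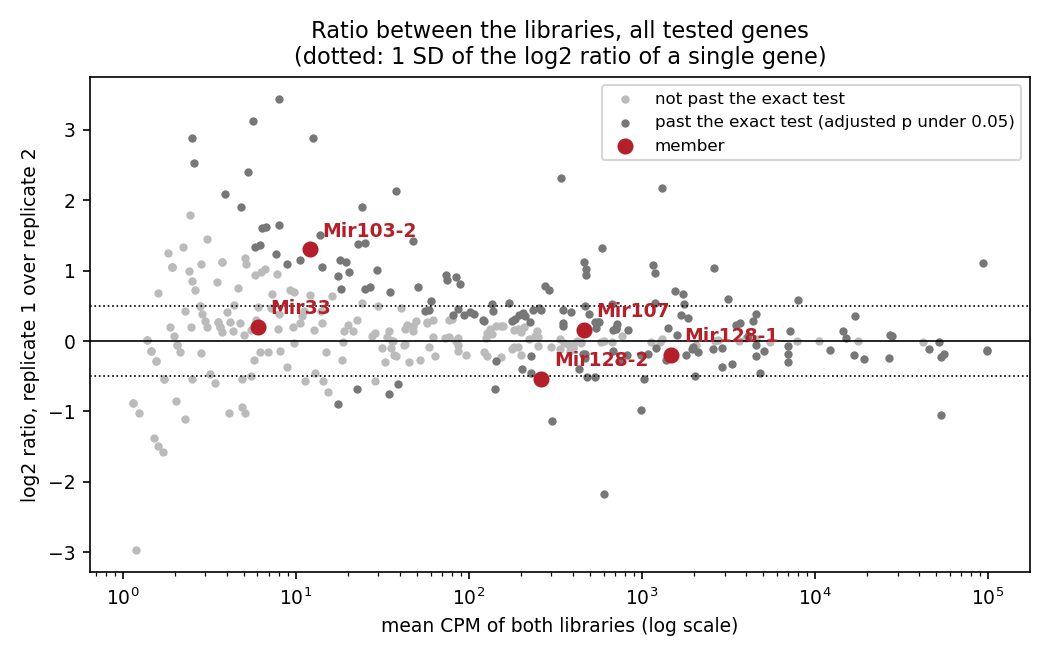
Log2 ratio of replicate 1 over replicate 2 against mean CPM (log axis) for the 364 genes tested, with dark points past the exact binomial test and dotted lines at the SD of 0.50 for a single gene. That SD leaves out counting error. Of the 5 labelled members, Mir103-2 (1.30) lies above the upper line and Mir128-2 (-0.54) just under the lower one.

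Markers of other cell types differed between the libraries as well. The listed muscle genes were lower in replicate 1 by share of reads placed at 1 locus only, a share held nearly all by Mir206. Of 10 muscle genes tested, 5 passed as lower and 3 as higher there, beside 15.1% and 30.2% of all tested genes. The higher ones numbered 2 with DESeq2 size factors and 1 with factors over all genes with a count. Of 12 neural genes, which bear on miR-128, 4 had no count in either library, among them the neuronal Mir124a-1, Mir124a-2 and Mir124a-3, which share a mature sequence. Reads that match several loci were given to no gene, so these zeros do not tell whether miR-124 was present. The neural list held 0.163% of replicate 1 and 0.0777% of replicate 2, nearly all from Mir338, a microRNA of myelinating glia. Of 6 neural genes tested, Mir338 and Mir137 passed as higher in replicate 1, beside 30.2% of all tested genes, and the other 4 did not pass. Mir122, typical of liver, stood at 96.6 CPM in replicate 1, against 50.3 CPM in replicate 2. The erythroid genes Mir451a and Mir144 together held 0.270% of replicate 1 and 0.0587% of replicate 2. Their part in the ratios of Mir103-2, Mir107, Mir128-1 and Mir128-2 was not tested, and in bulk tissue fewer cells of a type and less RNA per cell cannot be told apart.

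The detected genes closest in level were found by distance over both libraries on log2(CPM + 1). For Mir128-1 these were Mir369 (1243 CPM in replicate 1, 1502 CPM in replicate 2) and Mir361 (1644 and 1555 CPM). For Mir107 they were Mir181d (440.5 and 446 CPM) and Mir540, and for Mir128-2 they were Mir485 and Mir615. For Mir103-2 they were Mir5113 and Mir598, the last at 20.3 CPM in replicate 1 and 7.18 CPM in replicate 2. For Mir33 they were Mir219a-2 and Mir1938. With 2 libraries, such likeness is one of level: Mir361 stood higher in replicate 1 where Mir128-1 stood lower, and Mir181d and Mir540 stood lower where Mir107 stood higher.

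Among intronic microRNA genes the 6 ran from rank 20 to rank 166 of those with a count. Of the 737 genes in same-strand introns of coding genes, 287 had a count, and the class held 31.9% of replicate 1 and 32.9% of replicate 2. Mir128-1 ranked 20, Mir107 ranked 36, Mir128-2 ranked 43, Mir103-2 ranked 85, Mir33 ranked 97 and Mir103-1 ranked 166 in it. The class was led by Mir378a of the Ppargc1b intron at 98707 ± 6479 CPM (SD, n = 2), Mirlet7g and Mir23b. The median of the 5 detected members was 262 CPM, against 86.4 CPM for the other 110 detected genes of the class, a comparison given as a description.

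**Figure D4:**
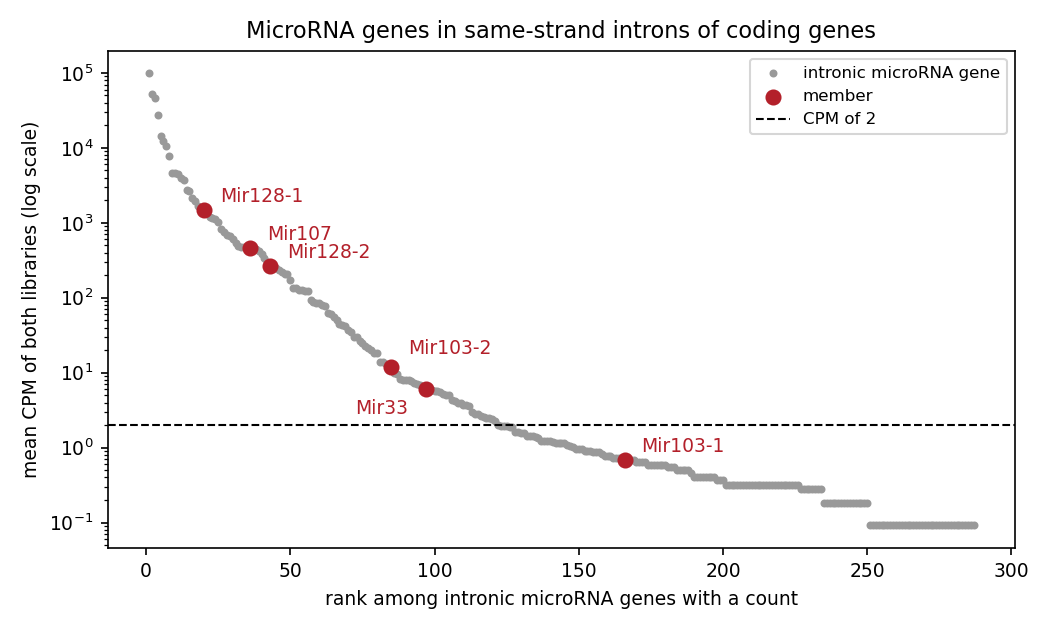
Mean CPM of both libraries (log axis) of the 287 counted microRNA genes in same-strand introns of coding genes, ranked, with the 6 members in red and a dashed line at a CPM of 2. The members run from rank 20 (Mir128-1) to rank 166 (Mir103-1), and only Mir103-1 lies under the line.

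The miR-103 and miR-107 genes belong to a wider group of microRNAs that begin alike. The 6 bases AGCAGC, looked for at base 1 or 2 of mature sequences, on their own strand, occurred in 13 of 1674 distinct mature sequences of RefSeq (0.777%). They start at base 1 in miR-103-3p and miR-107-3p and at base 2 in the miR-15, miR-16, miR-195a, miR-322, miR-497a and miR-503 sequences. The others, miR-195b, miR-6342, miR-6353 and miR-6419, also have them at base 2 and were not in the list used here. The other 8 listed genes of the group held 2.94% of replicate 1 and 2.35% of replicate 2, whereas Mir103-1, Mir103-2 and Mir107 together held 0.0505% and 0.0444%. These shares rest on reads placed at 1 locus only and are not amounts of the microRNAs. Mir103-1 and Mir103-2 share miR-103-3p, and Mir16-1 and Mir16-2 share miR-16-5p. Mir322, known to promote differentiation of mouse muscle precursors, led at 16965 ± 2989 CPM (SD, n = 2), before Mir15a at 3129 ± 905 CPM and Mir195a at 2898 ± 132 CPM, both of families that restrain the cell cycle. By mean level Mir107 came next to Mir15b, at 472 ± 226 CPM, and above Mir16-2, at 171 ± 45.2 CPM. Mir15b stood above Mir107 in replicate 1 (632 CPM) and below it in replicate 2 (312 CPM). Of these 8 other genes, 6 passed as higher in replicate 1 and 2, Mir195a and Mir497, as lower, beside 30.2% and 15.1% of all tested genes, with a median log2 ratio of 0.48 beside 0.15 for all genes tested. Mir322 and Mir503 form a cluster, and the miR-15, miR-16, miR-195 and miR-497 genes lie in clusters too. The 8 genes therefore do not count as independent.

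The seed of miR-128-3p recurs, moved by 1 base, in miR-27. CACAGUG starts at base 2 of miR-128-3p and at base 3 of miR-27a-3p and miR-27b-3p. Within the first 3 starts it was found in 4 of 1674 distinct mature sequences (0.239%), the remaining one being miR-216a-3p, at base 1. Mir27b had 6939 ± 227 CPM and Mir27a 1297 ± 18.7 CPM (SD, n = 2), Mir27a a little below Mir128-1, at 1481 ± 142 CPM. Such levels count reads placed at 1 locus only. The full miR-128-3p matches both Mir128-1 and Mir128-2, so the amounts of miR-128 and miR-27 were not compared.

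Other microRNA genes known to act on cholesterol and lipid transport or on insulin and glucose were mostly counted at higher levels than Mir33 and Mir103-2. Mir128-1, Mir107 and Mir128-2 lay above the medians of these other listed genes, 176 CPM (lipid) and 253 CPM (insulin and glucose). These levels rest on reads placed at 1 locus only, so they are not amounts of miR-103 or of other microRNAs with several loci. Of 19 such lipid genes besides Mir33, Mir128-1 and Mir128-2, 14 were detected in both libraries, led by Mir26b at 27840 ± 1020 CPM, Mir10b at 10502 ± 25.3 CPM and Mir27b (SD, n = 2). Mir122 and Mir144, more typical of liver and red blood cells, are in this list. Of the 15 tested, 7 passed as higher in replicate 1 and 1 as lower, beside 30.2% and 15.1% of all tested genes, or 6 and 6 with DESeq2 size factors. The median log2 ratio was 0.07, beside 0.15 for all genes tested, and Mir26b also had 0.07. With DESeq2 size factors both came to -0.06. Of 9 insulin and glucose genes besides Mir103-1, Mir103-2 and Mir107, 8 were detected, led by Mir378a, Mir143 and Mir29a, the last at 1544 ± 532 CPM. Of the 8 tested, 5 passed as higher in replicate 1 and 1 as lower, beside the same 30.2% and 15.1%, with a median log2 ratio of 0.61 beside 0.15 for all genes tested. The counts were 5 and 2 with TMM or DESeq2 factors over detected genes, and 4 and 2 with factors over all genes with a count. Mir143, typical of smooth muscle and fibroblasts, stood at 127590 CPM in replicate 1, against 59272 CPM in replicate 2.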

How the data were processed

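Raw counts were deposited by the authors as 1 table per library, with no header, 3 count columns per microRNA gene and 4 tally rows. From the values, the columns ignore strand, follow the gene's strand or follow the opposite strand; the second was used. The assembly was mm10, per the labels, and the annotation GENCODE M21, per the deposited readme files. For the aligner, the counter and any filters, the sources used here give nothing. Tally rows stayed out of library totals; in replicate 1, 68.6% of reads aligned to several places and 7.95% did not align, against 69.7% and 6.08% in replicate 2.

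CPM were computed from counts on gene rows, and detection meant a CPM of 2 or more in each library. Log2 ratios used an offset of 0.5 counts. Introns and hosts came from GENCODE M21, hairpins and mature microRNAs from RefSeq. The exact binomial test was run first on simulated counts with Poisson error only. That run could not show how the test behaves with spread between libraries beyond counting error. TMM (edgeR 4.0.16) and DESeq2 1.42.0 factors were taken over detected genes, with R 4.3.3. Python 3.11.15, scipy 1.17.1 and pandas 2.3.3 served for the rest. With 1 group no quasi-likelihood contrast exists. Members and lists were chosen with earlier results of these data known. Named were the 6 genes, the 2 nearest detected genes of each detected member, the leading 3 of each list and genes that share a seed; Mir15b, Mir16-2, Mir497 and further marker genes were named after their values were seen. Mir497a of the list is Mir497 in the annotation.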

Additional observations from a re-analysis of the deposited data

Results flagged for a closer look

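Reads that aligned to several places lie outside the counts used here. In replicate 1 they were 68.6% of the reads, and in replicate 2 they were 69.7%. It is not recorded how many of them came from the loci of miR-103 and miR-128, and their part in the low counts of Mir103-1 and Mir103-2 was not tested.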

How the results depend on the processing

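The number of members detected, 5, was the same with a CPM minimum of 1 or 5, when strand was ignored, and without replicate 1 or 2. The share held by the 6 genes, 0.222% ± 0.0167 (SD, n = 2), was 0.291% with the either-strand column and 0.0525% of all aligned reads, both larger or smaller by construction of the denominator. Of the 4 members past the exact binomial test, Mir103-2, Mir128-1 and Mir128-2 passed in all 7 alternatives run for the ratio. Among those alternatives, the offset of 1 count does not enter the test and could not change a call. Dropping the filter on counts changed only the adjustment of p. Mir107 lost its call with TMM scaling, DESeq2 size factors and the either-strand column (log2 ratio 0.13, adjusted p = 0.0753, exact binomial test). With factors over all genes with a count, a choice made after seeing the data, its log2 ratio was -0.019 (TMM) and -0.043 (DESeq2). Of all calls, 66.7% were higher in replicate 1 with library totals, 54.2% with TMM scaling and 45.7% with DESeq2 size factors, or 40.2% (TMM) and 37.8% (DESeq2) with factors over all genes with a count; the cause was not tested. The mean log2 ratio of Mir103-1 over Mir103-2 was -3.65, from -4.20 without replicate 2 to -3.10 without replicate 1, and that of Mir128-1 over Mir128-2 was 2.52, from 2.35 without replicate 1 to 2.69 without replicate 2. No ratio between the libraries could be had without either replicate. No paired analysis was possible because both libraries belong to 1 group. Depth limits Mir103-1, with 1 and 4 counts, and Mir33, with 10 and 31.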
